A study of Mus musculus with 28 samples.

Results

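Il10 encodes the regulatory cytokine interleukin-10, and its transcripts are described here with those of 9 related genes. These are 6 transcription factors known to act on Il10 in T cells (Maf, Prdm1, Batf, Irf4, Nfil3 and Bhlhe40), the receptor genes Il10ra and Il27ra, and Itga2. Itga2 encodes the integrin CD49b, a surface marker of type 1 regulatory T cells. The genes were taken by symbol, and all 10 were found among the 25124 genes of the table. RNA came from CD4+ T cells of the mouse small intestinal lamina propria, sorted as live CD45+ CD90.2+ TCRb+ CD4+ cells with no gate on IL-10, CD49b or LAG-3. Every mouse, controls included, carried T-bet-ZsGreen, a fluorescent reporter of the transcription factor T-bet. The mice had a gut flora (specific-pathogen-free, SPF) or lacked one (germ-free, GF), and were given either an antibody to CD3 (aCD3) or an isotype control antibody. The SPF groups held 6 libraries each, isotype and aCD3, with both sexes at 3. In GF, the isotype group held 10 libraries, 5 of each sex, and the aCD3 group 6, of which 1 was female. Libraries are named below by sex letter and number. The labels used here give no age, antibody dose or time after injection. They do not say whether each library was a separate mouse, so p-values measure the spread between libraries, which may in part be technical.

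Interleukin-10 restrains inflammation in the gut, and CD4+ T cells are one of its sources there. Antibodies against CD3 engage the T cell receptor complex. In T cells, the MAF protein binds the Il10 locus and activates it. BATF and IRF4 bind together at composite sites opened after receptor signalling. BLIMP-1 (encoded by Prdm1) and NFIL3 are linked to Il10 expression in several T helper types. BHLHE40 is known as a repressor of Il10. The cytokine IL-27, read by the receptor subunit IL27RA, raises Il10 through STAT proteins, and the secreted cytokine is read by IL10RA on the T cells themselves and on other cells.

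Values are TPM, a length-scaled share of each library's reads. The authors divided by each gene's genomic span with introns, so a level is compared here only within a gene. The libraries held 6765529 to 17860629 reads in genes, recovered from the TPM values. All 10 genes were above 1 TPM in every library, and the fewest reads behind a single value were 162, for Nfil3. All 9 CD4 T cell markers examined, Cd4 and the Cd3 chains among them, had a median of at least 1 TPM in every group. The 6 GF aCD3 libraries stood apart from each other in genes outside the set: histone genes took 23.6%, 23.3% and 26.2% of the TPM in M1, M2 and M5 but 5.47%, 7.55% and 6.52% in F1, M3 and M4. The other groups ran 23.95% to 27.03% in SPF aCD3, 4.12% to 7.12% in SPF isotype and 3.85% to 9.33% in GF isotype. Lag3, which encodes an inhibitory receptor, stood at 498, 452 and 527 TPM in M1, M2 and M5 and at 9.59, 17.0 and 12.3 TPM in F1, M3 and M4. The libraries were not regrouped by these values, and comparisons that use them are given with each library left out in turn. Sample numbers in the column names ran from 1 to 12 in SPF and from 25 to 33 and 48 to 54 in GF. A run below is such a stretch of numbers, taken from the numbers alone and not from a stated batch. Any difference between these runs and the effect of colonisation cannot be told apart.

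Positions are on the mm10 build, as the table gives them. On the plus strand, Il10 lies at chr1:131019845-131024970, Batf at chr12:85686720-85709087, Irf4 at chr13:30749233-30766981 and Bhlhe40 at chr6:108660629-108666925. The factors on the minus strand are Maf at chr8:115703253-115706894, Prdm1 at chr10:44437174-44458748 and Nfil3 at chr13:52967209-52981039. Itga2 at chr13:114833081-114932100, Il10ra at chr9:45253837-45269149 and Il27ra at chr8:84030286-84042575 are on the minus strand as well. RefSeq promoter windows of build GRCm38.p6 (250 bases before to 50 after the gene start) matched 5 of the 10 symbols, namely Prdm1, Batf, Irf4, Nfil3 and Itga2. The windows were searched on both strands for an AP-1 and BATF site (TGANTCA), the core of a MAF site (TGCTGA), an NFIL3 site (TTACNTAA) and an E-box of the kind BHLHE40 binds (CACGTG). An IRF and PRDM1 site was read as GAAA, any 2 bases and GAAA. A composite of BATF and IRF4 was read as TGANTCA with GAAA directly before it or 4 bases after it, so it contains the AP-1 site. A single match was found, an AP-1 and BATF site in the Prdm1 window starting at position -48 from the gene start. Of all 32817 windows in the table, 7.81% held the AP-1 and BATF letters, 19.5% the MAF core and 2.32% the NFIL3 site. The E-box was held by 7.15%, the IRF and PRDM1 site by 3.43% and a composite by 0.244%, so the counts of 1 of 5 and 0 of 5 are descriptions only. The 250 bases upstream of Prdm1, at chr10:44458749-44458998 on the minus strand, are shown for that match, in capitals. Those upstream of Nfil3, at chr13:52981040-52981289 on the minus strand, are shown because Nfil3 had the highest fold of the 6 factors under aCD3, and hold none of these letters.
Prdm1: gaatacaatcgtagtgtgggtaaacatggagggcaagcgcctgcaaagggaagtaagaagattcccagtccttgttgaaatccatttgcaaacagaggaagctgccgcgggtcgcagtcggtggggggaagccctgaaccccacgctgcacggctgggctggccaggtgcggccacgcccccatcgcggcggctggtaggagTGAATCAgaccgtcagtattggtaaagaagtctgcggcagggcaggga
Nfil3: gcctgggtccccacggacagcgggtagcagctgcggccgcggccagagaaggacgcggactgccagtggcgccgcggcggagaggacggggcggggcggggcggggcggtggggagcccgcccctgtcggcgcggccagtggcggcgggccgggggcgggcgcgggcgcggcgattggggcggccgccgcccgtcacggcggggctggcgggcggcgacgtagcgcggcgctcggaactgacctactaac

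Il10 was 7.09 times higher after aCD3 in SPF mice, and higher in 6 of 6 libraries. Transcript levels ran 73.7 to 104 TPM (median 95.7) in SPF isotype and 556 to 766 TPM (median 660.3) in SPF aCD3. Every SPF aCD3 library lay above every SPF isotype library. The means were 92.3 ± 11.7 and 654 ± 78.5 TPM (SD, n = 6 each), a ratio of 7.09 (log2 fold change 2.81 ± 0.39 SE, adjusted p = 4.64e-06). The test was limma on log2(TPM + 1) with Benjamini-Hochberg adjustment over 12182 genes, which gave all adjusted p below, with a threshold of 0.05. In these bulk samples, more cells with Il10 transcripts and more transcripts per cell cannot be told apart.

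**Figure D1:**
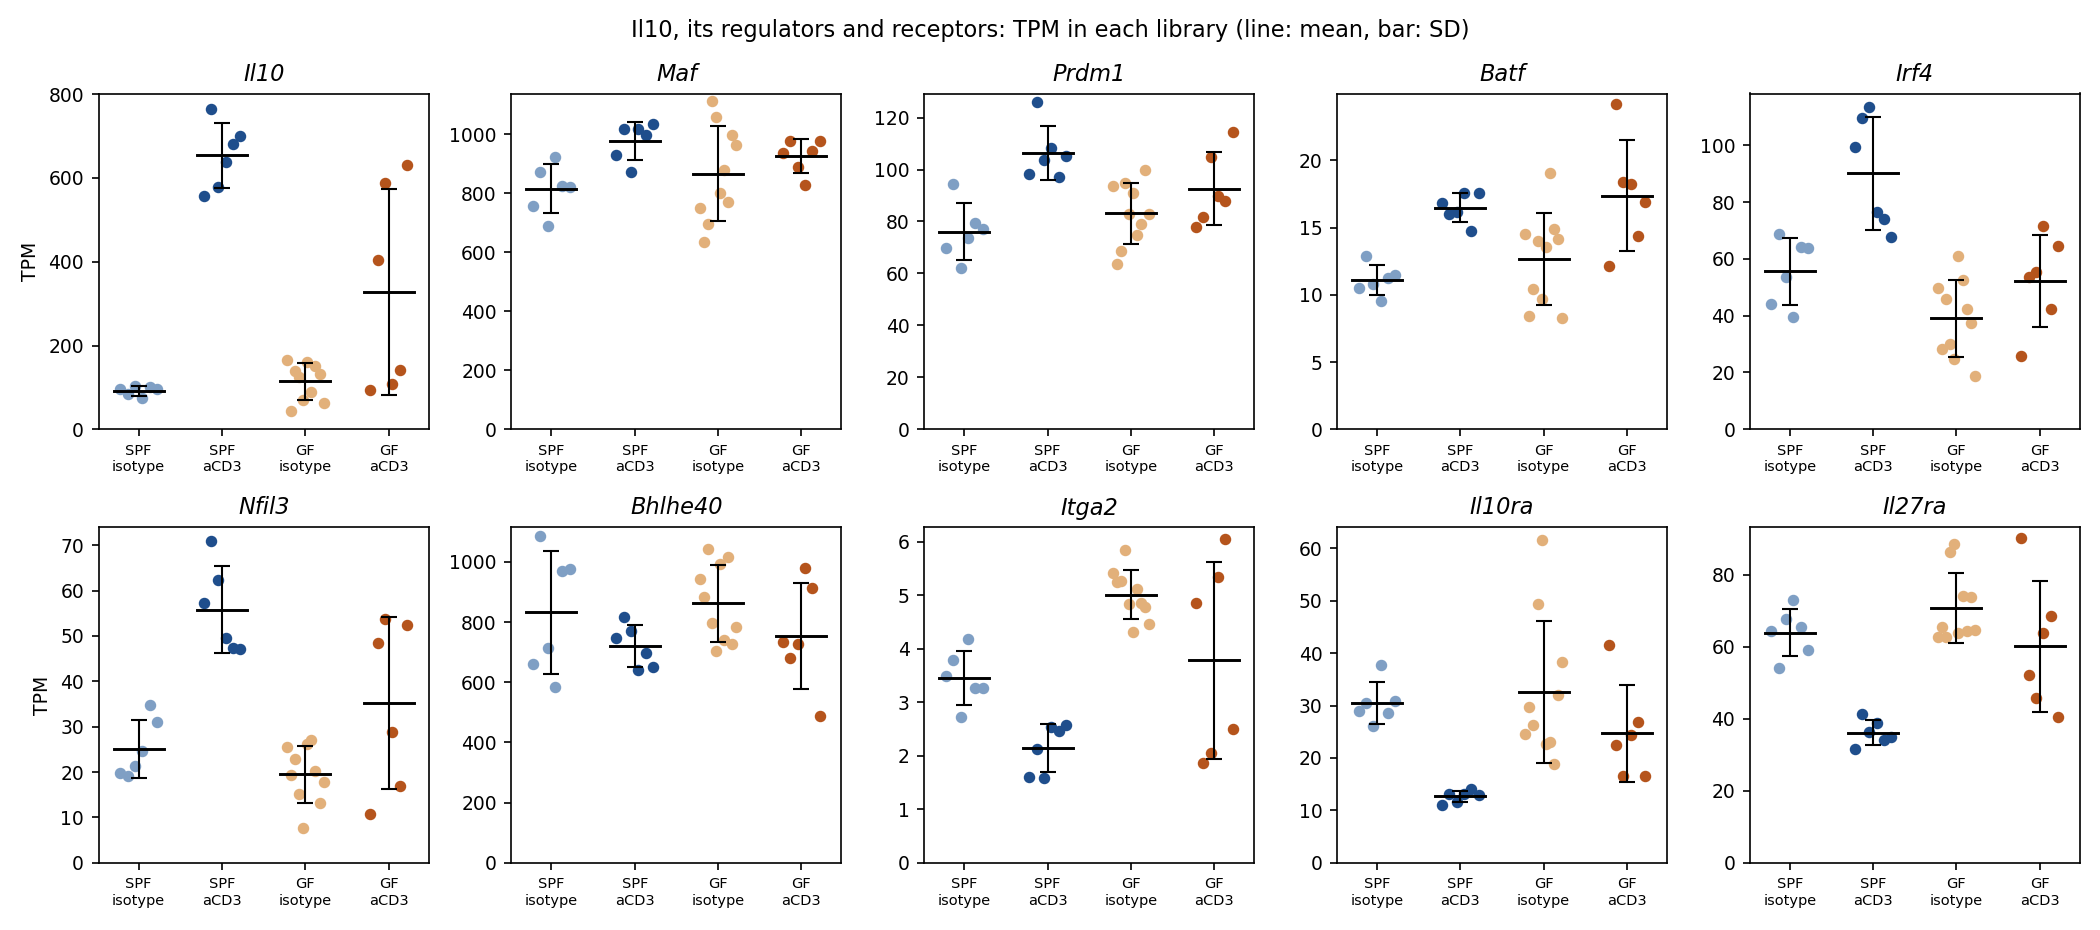
TPM of each gene in each of the 28 libraries (points), with the group mean (line) and SD (bar), for SPF isotype (n = 6), SPF aCD3 (n = 6), GF isotype (n = 10) and GF aCD3 (n = 6); each vertical axis starts at 0. SPF aCD3 libraries of Il10 sit between 556 and 766 TPM, clear of both isotype groups, while GF aCD3 libraries spread from 93.5 to 630.0 TPM.

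Of the 10 genes, 6 were higher and 3 lower in SPF aCD3 than in SPF isotype past the threshold. Among all genes tested, 14.2% were called higher and 50.7% lower in this comparison, and the median of all genes was a log2 fold change of -0.35. Scaling by median of ratios moved that median to -0.01. On that scale 6 of the 10 were called higher and 2 lower, against 30.2% and 29.8% of all genes. In TPM, the groups did not overlap for 4 genes that were higher (Il10, Prdm1, Batf and Nfil3) and 3 that were lower (Itga2, Il10ra and Il27ra), against 8.57% and 33.4% of all genes.

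Nfil3, a basic leucine zipper factor first known for its role at the interleukin-3 promoter, had the highest fold of the 6 factors. It ran 19.2 to 34.7 TPM (median 23.04) in SPF isotype and 47.1 to 70.9 TPM (median 53.4) in SPF aCD3. The ratio of its means was 2.22 (log2 fold change 1.14 ± 0.30 SE, adjusted p = 0.00192). No SPF aCD3 library of Nfil3 fell within the isotype range. Prdm1, whose product BLIMP-1 acts in effector and regulatory T cells, ran 62.2 to 94.6 TPM (median 75.3) in SPF isotype and 97.3 to 126 TPM (median 105) in SPF aCD3. The groups were separated narrowly, with isotype F2 closest to the aCD3 range (log2 fold change 0.49 ± 0.11 SE, adjusted p = 6.27e-04). Batf, an AP-1 family factor without a transactivation domain, ran 9.53 to 12.9 TPM (median 11.04) in SPF isotype and 14.8 to 17.6 TPM (median 16.5) in SPF aCD3. Its groups did not overlap either (log2 fold change 0.54 ± 0.15 SE, adjusted p = 0.00383).

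Irf4, the partner of BATF at composite sites and a gene induced by receptor signalling, ran 39.7 to 68.6 TPM (median 58.7) in SPF isotype and 67.8 to 114 TPM (median 87.9) in SPF aCD3. All but the lowest of the 6 aCD3 libraries, M3 at 67.8 TPM, lay above every isotype library (log2 fold change 0.68 ± 0.25 SE, adjusted p = 0.0199). That call was lost without SPF isotype M1 (adjusted p = 0.0573) or without SPF aCD3 F3 (adjusted p = 0.0522), and stood when the SPF groups alone were fitted (adjusted p = 0.00209). Maf, an activator of Il10 in several T helper types, ran 690.4 to 925 TPM (median 824) in SPF isotype and 872 to 1034 TPM (median 1008) in SPF aCD3. Its groups overlapped, with a ratio of means of 1.20 (log2 fold change 0.27 ± 0.11 SE, adjusted p = 0.039). Its call was lost when SPF isotype F1, F3, M2 or M3 or SPF aCD3 F1, F2, M1, M2 or M3 was left out (adjusted p from 0.0511 without aCD3 F1 to 0.0884 without isotype F3), and with no low-value filter (adjusted p = 0.0602). With the SPF groups alone its adjusted p was 0.00596, and by median of ratios 6.81e-05. Bhlhe40, the repressor, was not called. It ran 585 to 1086 TPM (median 843) in SPF isotype and 641 to 816 TPM (median 722) in SPF aCD3 (log2 fold change -0.18 ± 0.16 SE, adjusted p = 0.336). Its sign turned by median of ratios (log2 fold change 0.24 ± 0.14 SE, adjusted p = 0.153). The aCD3 range of Bhlhe40 lay wholly inside the isotype range.

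The surface and receptor genes were lower. Il10ra, which encodes the ligand-binding chain of the IL-10 receptor, ran 26.1 to 37.8 TPM (median 29.7) in SPF isotype and 11.1 to 14.1 TPM (median 12.99) in SPF aCD3. The isotype mean was 2.41 times the aCD3 mean (log2 fold change -1.20 ± 0.22 SE, adjusted p = 5.07e-05). Il27ra ran 54.2 to 73.1 TPM (median 64.9) in SPF isotype and 31.6 to 41.4 TPM (median 35.6) in SPF aCD3 (log2 fold change -0.80 ± 0.14 SE, adjusted p = 2.50e-05). Neither gene overlapped between the groups, and both stayed called by median of ratios, at smaller changes of -0.81 ± 0.19 SE, adjusted p = 8.37e-04 for Il10ra and -0.40 ± 0.11 SE, adjusted p = 0.00291 for Il27ra. Itga2 ran 2.73 to 4.19 TPM (median 3.39) in SPF isotype and 1.59 to 2.57 TPM (median 2.29) in SPF aCD3 (log2 fold change -0.51 ± 0.17 SE, adjusted p = 0.013). Each of its 28 values rests on at least 252 reads. Its aCD3 libraries were all below its isotype libraries, but by median of ratios it was not called (log2 fold change -0.21 ± 0.13 SE, adjusted p = 0.171).

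**Figure D2:**
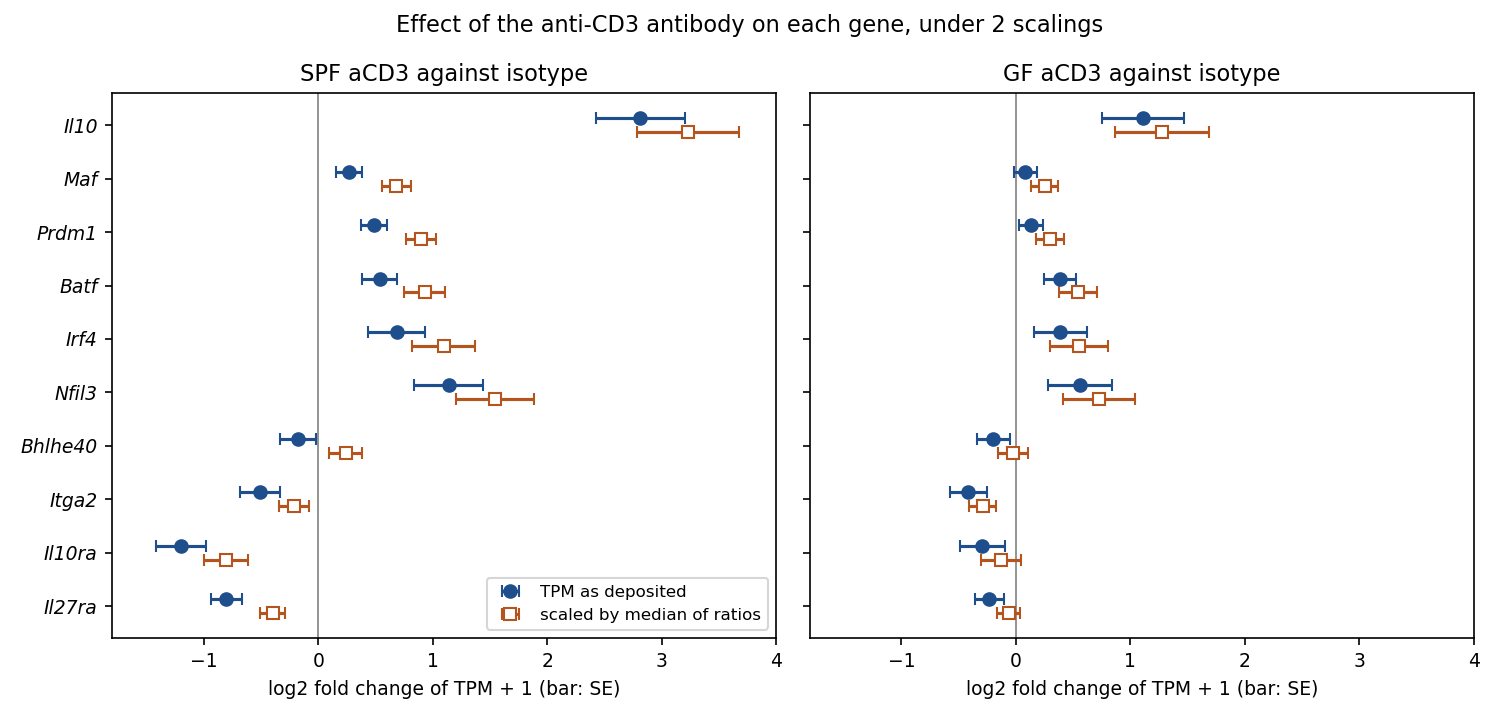
Log2 fold change of TPM + 1 (horizontal axis; bars, SE) for each gene after aCD3 against isotype, in SPF (left) and GF (right), from TPM as deposited (filled circles) and after scaling by median of ratios (open squares). In SPF, Il10 stands at 2.81 in TPM and 3.23 after scaling; Bhlhe40 moves from -0.18 to 0.24, and the other 9 genes keep their side of 0.

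Markers of other cells moved with the antibody too, and their part in these changes was not tested. Summed over 8 B and plasma cell genes, TPM ran 192 to 374 in SPF isotype and 87.2 to 154 in SPF aCD3, with Jchain at a median of 171 TPM in isotype and 0.716 TPM in aCD3. Xbp1, at medians of 103 and 118 TPM, made up most of the aCD3 sum. Ms4a1, a defining B cell gene, had a median of 0.0685 TPM in SPF isotype and 0 TPM in SPF aCD3. The 10 myeloid genes summed to 5.69 to 23.0 TPM in SPF isotype and 60.7 to 108 TPM in SPF aCD3. Cd68 made up most of the latter, with a median of 77.1 TPM against 7.15 in isotype. C1qa and C1qb were at 0 in all SPF aCD3 libraries, and Csf1r, Itgam, Adgre1 and Lyz2 had medians of 0.089, 0.122, 0.002 and 0.0575 TPM. The 6 natural killer and innate lymphoid genes summed to 35.9 to 55.7 TPM in SPF isotype and 11.9 to 17.8 TPM in SPF aCD3. In that list Kit went the other way without overlap, from a median of 1.01 to 4.63 TPM, and Il1rl1 ran 3.02 to 6.36 in isotype and 4.05 to 7.66 TPM in aCD3. The 5 stromal and endothelial genes summed to 13.4 to 34.3 and 2.67 to 4.44 TPM, and the 6 epithelial genes to 5.09 to 10.2 and 2.69 to 5.78 TPM. The 2 CD8 T cell genes summed to 5.68 to 13.5 and 9.75 to 23.8 TPM, and the 5 mast cell and platelet genes were under 1.6 TPM in sum in every library.

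In the GF group labelled aCD3 the levels of these genes varied by library, and 0 of the 10 genes were called against isotype, with 2 higher and 1 lower at an unadjusted p under 0.05, which 35.7% of all genes reached in either direction. Among all genes tested, 2.46% were called higher and 4.61% lower. All contrasts with GF aCD3, here and below, take its 6 libraries as labelled. Whether F1, M3 and M4, whose Lag3 and histone values lie with the isotype groups, had the same exposure to the antibody as M1, M2 and M5 was not tested. Il10 ran 44.3 to 165 TPM (median 129) in GF isotype. In GF aCD3 it was 93.5 TPM in F1, 403 in M1, 588 in M2, 109 in M3, 141 in M4 and 630.0 in M5. M1, M2 and M5 were thus above every GF isotype library, and F1, M3 and M4 were inside the isotype range. The means were 114 ± 43.9 (n = 10) and 327 ± 246 (n = 6) TPM (log2 fold change 1.11 ± 0.36 SE, adjusted p = 0.0537). The coefficient of variation was 75.2% in GF aCD3 against 12.01% in SPF aCD3.

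The call on Il10 in GF was made under several other settings, among them median of ratios (log2 fold change 1.28 ± 0.41 SE, adjusted p = 0.0491). The log2 fold change was called without GF aCD3 F1 (1.44, adjusted p = 0.00994), without M3 (1.34, adjusted p = 0.0093) and without M4 (1.27, adjusted p = 0.0166). Leaving out M5 gave 0.86 with an adjusted p of 0.193. Without F1, 6 of the 10 genes were called (Il10, Batf, Irf4 and Nfil3 higher, Itga2 and Il27ra lower), when 29.8% of all genes were called in either direction. Without M4 there were 4 (Il10, Batf and Nfil3 higher, Itga2 lower), against 31.7% of all genes. Without M3 there were 2 (Il10 higher and Itga2 lower), against 34.6%. The 4 and 2 of 10 are thus near or below the share of all genes. Without any 1 of the other 13 GF libraries there were 0, as there were over all 12182 genes. By median of ratios 2 were called, Il10 and Batf, both higher. On that scale 5.62% of all genes were higher and 4.02% lower, where TPM gave more lower than higher. Fitted with the 2 GF groups alone, 0 of the 10 genes and 0 of the 12182 were called, with 2420 genes at an unadjusted p under 0.05 by limma.

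Nfil3, Itga2 and Il27ra also left the GF isotype range in M1, M2 and M5. Nfil3 in GF isotype ran 7.70 to 27.1 TPM (median 19.8). In GF aCD3 it was 48.5, 53.7 and 52.5 TPM in M1, M2 and M5. It was just above that range at 28.8 in M3, and inside it at 10.8 in F1 and 16.95 in M4 (log2 fold change 0.56 ± 0.28 SE, adjusted p = 0.146). Itga2 in GF isotype ran 4.32 to 5.85 TPM (median 4.98). After aCD3 it was 1.87, 2.06 and 2.51 TPM in M1, M2 and M5, below all GF isotype libraries. F1, M3 and M4 had 4.87, 5.34 and 6.06 TPM, of which M4 was above them (log2 fold change -0.42 ± 0.16 SE, adjusted p = 0.0775). Il27ra split in the same libraries, with 52.2, 45.6 and 40.4 TPM in M1, M2 and M5, all under the GF isotype low of 62.7. F1, M3 and M4 had 90.4, 63.9 and 68.6 TPM (log2 fold change -0.23 ± 0.12 SE, adjusted p = 0.182). Counted over the 10 genes, 6 in M1, 6 in M2 and 8 in M5 lay outside the GF isotype range, against 1 in F1, 2 in M3 and 1 in M4. Of all genes tested, 61.4% in M1, 61.7% in M2 and 65.0% in M5 lay outside that range, against 15.4% in F1, 23.5% in M3 and 13.9% in M4. The counts for the 10 genes are near these shares, so they are no result particular to the set.

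The remaining genes separated the GF aCD3 libraries less. Il10ra was under the GF isotype low of 18.8 TPM in M2 and M5 (16.6 and 16.5 TPM) and inside the isotype range in the other 4 (log2 fold change -0.29 ± 0.20 SE, adjusted p = 0.288). Prdm1 was above the GF isotype high of 99.8 TPM in M2 and M5 (105 and 114 TPM; log2 fold change 0.13 ± 0.10 SE, adjusted p = 0.355). Batf exceeded its isotype high of 19.04 TPM in M1 alone, at 24.2 TPM (log2 fold change 0.38 ± 0.14 SE, adjusted p = 0.0699). Irf4 did so in M3 and M5, at 71.5 and 64.5 TPM against a high of 61.2 (log2 fold change 0.39 ± 0.23 SE, adjusted p = 0.221). M3 was thus the library with the most Irf4 of its group and an Il10 level inside the isotype range. Maf stayed inside the GF isotype range in all 6 libraries (log2 fold change 0.08 ± 0.10 SE, adjusted p = 0.568). Bhlhe40 was below the isotype low of 703 TPM in M1 and M5 (679 and 487 TPM; log2 fold change -0.20 ± 0.15 SE, adjusted p = 0.331).

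**Figure D3:**
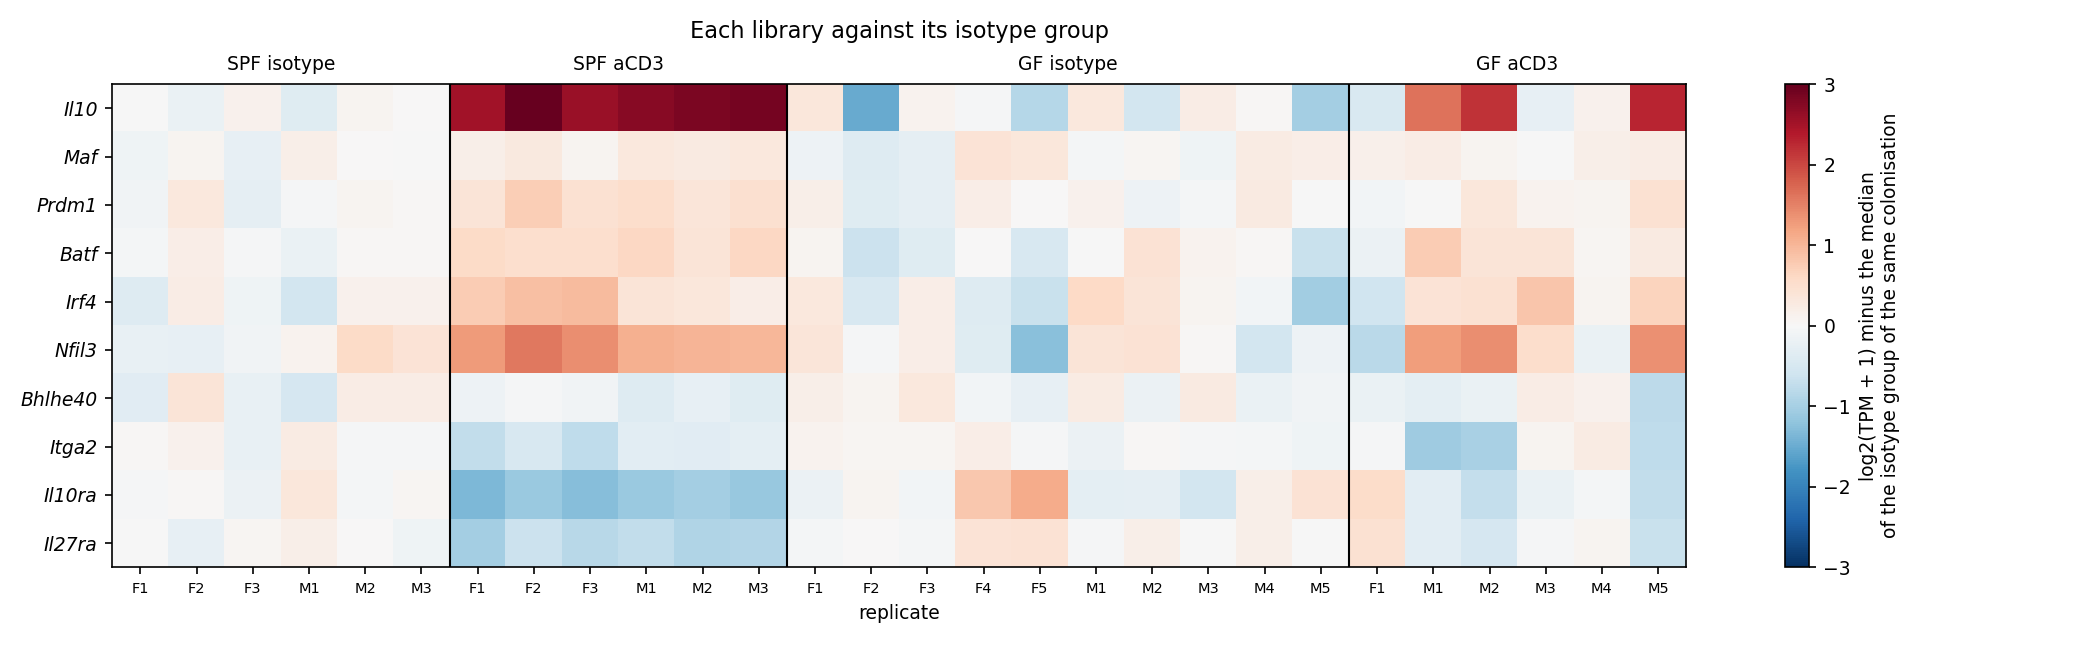
Colour gives log2(TPM + 1) of each gene (rows) in each library (columns, grouped; replicate names below) minus the median of the isotype group of the same colonisation. All 6 SPF aCD3 libraries show Il10 and Nfil3 above and Il10ra and Il27ra below their isotype median, a pattern seen in M1, M2 and M5 of GF aCD3.

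Both runs of sample numbers in GF held isotype and aCD3 samples, so the antibody's effect could be taken within each. For Il10 the log2 fold change was 1.19 within numbers 25 to 33 and 1.01 within numbers 48 to 54, and 1.07 with run as a covariate (adjusted p = 0.193). For Nfil3 the within-run values were 0.77 and 0.55, for Itga2 -0.59 and -0.15, for Il10ra -0.04 and -0.58 and for Il27ra -0.33 and -0.21. Batf gave 0.34 and 0.32, Irf4 0.21 and 0.54, Prdm1 0.17 and 0.01 and Bhlhe40 -0.21 and -0.12; Maf changed sign, with 0.14 and -0.10. No gene of the set was called in either run or with the covariate, but of all 12182 genes 1 was called within each run and 0 with the covariate (2968 at an unadjusted p under 0.05 by limma), so this is no result about the set. The GF isotype libraries themselves differed between runs in a comparison added after the values were seen. Il10ra had 24.2 ± 3.70 TPM in numbers 25 to 33 (SD, n = 6) and 45.3 ± 13.01 TPM in numbers 48 to 54 (n = 4; log2 fold change 0.85, adjusted p = 0.00349). Maf had 756 ± 83.9 and 1034 ± 66.4 TPM (0.46, adjusted p = 0.0168), and Nfil3 23.5 ± 3.26 and 13.5 ± 4.28 TPM (-0.81, adjusted p = 0.0295). Of all genes tested, 5.86% were higher and 4.40% lower in the later numbers, and Il10 was not called (-0.29, adjusted p = 0.672).

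Without the antibody, none of the 10 genes was called between GF and SPF isotype by limma on TPM, with 1 higher and 1 lower at an unadjusted p under 0.05, which 25.5% of all genes reached. Of all genes tested, 6.42% were higher and 0.755% lower in GF. The balance turned by median of ratios, to 0.517% higher and 1.16% lower, and the median of all genes moved from a log2 fold change of 0.15 to 0.01. Il10 means were 114 ± 43.9 TPM in GF and 92.3 ± 11.7 in SPF (log2 fold change 0.20 ± 0.35 SE, adjusted p = 0.743). Itga2 was the gene whose groups did not overlap. All 10 GF isotype libraries, from 4.32 to 5.85 TPM, lay above all 6 SPF isotype libraries, which ended at 4.19 TPM (log2 fold change 0.44 ± 0.16 SE, adjusted p = 0.0835). Of all genes, 2.39% were likewise wholly above and 0.238% wholly below in GF. With the 2 isotype groups fitted alone Itga2 was called (adjusted p = 0.00384). Irf4 was the lower one, with 39.1 ± 13.5 TPM in GF and 55.7 ± 11.8 in SPF (log2 fold change -0.55 ± 0.22 SE, adjusted p = 0.125), and its ranges overlapped. Il10ra, Maf and Nfil3 are the genes that differed between the GF runs, so their GF isotype levels depend on the mix of numbers. Markers of other cells differed here too, and their part was not tested. Jchain had medians of 27.3 TPM in GF and 171 in SPF isotype, Dcn 0.142 and 5.26, and Col1a1 0.504 and 5.81. Other members of these lists did not all follow, with Xbp1 at 109 and 103, Pecam1 at 7.98 and 9.53 and Cdh5 at 0.0855 and 0. The 2 CD8 T cell genes summed to 1.25 to 61.2 TPM (median 2.9) over the GF isotype libraries and to 5.68 to 13.5 TPM (median 8.11) in SPF isotype. In GF aCD3 the 10 myeloid genes summed to 12.1 to 60.5 TPM, against 8.97 to 27.3 in GF isotype, and the 6 natural killer and innate lymphoid genes to 13.996 to 33.7 against 21.8 to 75.5 TPM. Members did not all go with the sum: medians in GF aCD3 and GF isotype were 28.7 and 9.37 TPM for Cd68 but 3.27 and 4.78 for Fcer1g, and 7.43 and 21.5 for Klrb1c but 1.92 and 0.601 for Kit.

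After aCD3, GF libraries had less Il10, Irf4 and Nfil3 and more Itga2, Il10ra and Il27ra than SPF libraries, 6 of the 10 genes called. Among all genes, 48.9% were called higher and 4.46% lower in GF. Il10 in GF aCD3 averaged 0.501 times its SPF aCD3 mean (log2 fold change -1.51 ± 0.40 SE, adjusted p = 0.00355). M2 and M5 of GF were inside the SPF aCD3 range and the other 4 below it. Irf4 had 52.2 ± 16.3 TPM in GF and 90.1 ± 19.8 in SPF (log2 fold change -0.85 ± 0.26 SE, adjusted p = 0.00873). Nfil3 had 35.2 ± 18.9 and 55.8 ± 9.57 TPM (log2 fold change -0.97 ± 0.31 SE, adjusted p = 0.0115). For Nfil3, M1, M2 and M5 of GF (48.5, 53.7 and 52.5 TPM) were inside the SPF aCD3 range, and F1, M3 and M4 (10.8, 28.8 and 16.95 TPM) below it. Il10ra was the gene without overlap, its lowest GF aCD3 library at 16.5 TPM being above the highest SPF aCD3 library at 14.1 (log2 fold change 0.92 ± 0.22 SE, adjusted p = 0.00199). Of all genes, 12.2% lay wholly above and 0.780% wholly below in GF. Il27ra was higher in 5 of 6 GF libraries than in any SPF one (log2 fold change 0.71 ± 0.14 SE, adjusted p = 5.97e-04). Itga2 was so in 3 of 6 (log2 fold change 0.53 ± 0.18 SE, adjusted p = 0.0158). Markers of other cells moved with this comparison too, and their part was not tested. The myeloid genes summed to 12.1 to 60.5 TPM in GF aCD3 and 60.7 to 108 in SPF aCD3. Cd68 went with the sum, at medians of 28.7 and 77.1 TPM. Fcer1g (3.27 and 2.61), Lyz2 (0.234 and 0.0575) and Csf1r (0.16 and 0.089) were among those that went the other way. Jchain had medians of 9.01 and 0.716 TPM, and Xbp1 of the same list 116 and 118.

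By median of ratios 2 of the 10 genes were called higher (Il10ra and Il27ra) and 5 lower (Il10, Maf, Prdm1, Irf4 and Nfil3) in GF aCD3 than in SPF aCD3, against 16.0% and 16.7% of all genes. The log2 fold changes moved with the scale, to 0.31 ± 0.11 SE, adjusted p = 0.0351 for Il27ra, 0.54 ± 0.20 SE, adjusted p = 0.0383 for Il10ra and -0.52 ± 0.13 SE, adjusted p = 0.00557 for Maf. Itga2 was lost (0.22 ± 0.14 SE, adjusted p = 0.21). Without GF aCD3 F1 the TPM count fell from 6 to 3, with Irf4 (adjusted p = 0.0604), Nfil3 (0.081) and Itga2 (0.0756) lost, when 40.1% of all genes were called in either direction. Without M4 Itga2 was lost (adjusted p = 0.0517). With the 2 aCD3 groups fitted alone 4 were called, against 37.6% of all genes, with Nfil3 (adjusted p = 0.064) and Itga2 (0.136) lost. Maf (log2 fold change -0.11 ± 0.11 SE, adjusted p = 0.422), Prdm1 (log2 fold change -0.23 ± 0.12 SE, adjusted p = 0.0969), Batf (log2 fold change -0.01 ± 0.16 SE, adjusted p = 0.971) and Bhlhe40 (log2 fold change 0.05 ± 0.16 SE, adjusted p = 0.791) were not called in TPM.

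The difference of the antibody's effect between GF and SPF was tested as its own term, and 0 of the 10 genes were called in TPM, with 2 above and 2 below 0 at an unadjusted p under 0.05, which 32.1% of all genes reached. Over all genes tested, 2.44% had a higher and 1.04% a lower effect in GF. For Il10 the difference, GF minus SPF, was -1.70 ± 0.53 SE on the log2 scale (adjusted p = 0.0578). The values for Il10ra and Il27ra were 0.91 ± 0.29 (adjusted p = 0.0634) and 0.57 ± 0.18 (adjusted p = 0.0615). By median of ratios the difference was called for Il10 (-1.95 ± 0.61 SE, adjusted p = 0.0423) and Prdm1 (-0.60 ± 0.18 SE, adjusted p = 0.0407). These are 2 of 10 lower, with 5.30% of all genes higher and 6.04% lower. The TPM count ran from 0 to 4 as single libraries were left out. It was 4 without GF aCD3 M5, 3 without M1 or M2 and 1 without GF isotype F5, with Il10 called in the first 3 of these (adjusted p = 0.0122, 0.0328 and 0.02). The calls over all genes moved as well, to 26.2% in either direction without M5, 16.8% without M1, 20.4% without M2 and 2.14% without GF isotype F5. Without SPF isotype F3, Il10 (adjusted p = 0.0361), Il10ra (0.0362) and Il27ra (0.0474) were called, when 17.0% of all genes were. In that library the ribosomal RNA gene Rn45s took 22.9% of the TPM, against 13.1% to 14.9% in the other 5 of SPF isotype, and the part of this in the calls was not tested.

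Read across the 4 groups, the mean of Il10 was lowest in SPF isotype and rose through GF isotype and GF aCD3 to SPF aCD3. The isotype neighbours were not called apart, nor was GF aCD3 from GF isotype in TPM. Il10ra was lowest in SPF aCD3, followed by GF aCD3, SPF isotype and GF isotype, with means of 12.7 ± 1.11, 24.7 ± 9.27, 30.4 ± 3.98 and 32.7 ± 13.5 TPM. Il27ra took the same order, at 36.2 ± 3.48, 60.2 ± 18.2, 63.96 ± 6.61 and 70.7 ± 9.81 TPM. For both receptors SPF aCD3 was called apart from GF aCD3; GF aCD3 against SPF isotype, the next neighbours in this order, was not tested, and the isotype groups were not called apart. Itga2 was lowest in SPF aCD3 as well, at 2.15 ± 0.454 TPM, then SPF isotype at 3.46 ± 0.501, GF aCD3 at 3.78 ± 1.85 and GF isotype at 5.02 ± 0.458 TPM.

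**Figure D4:**
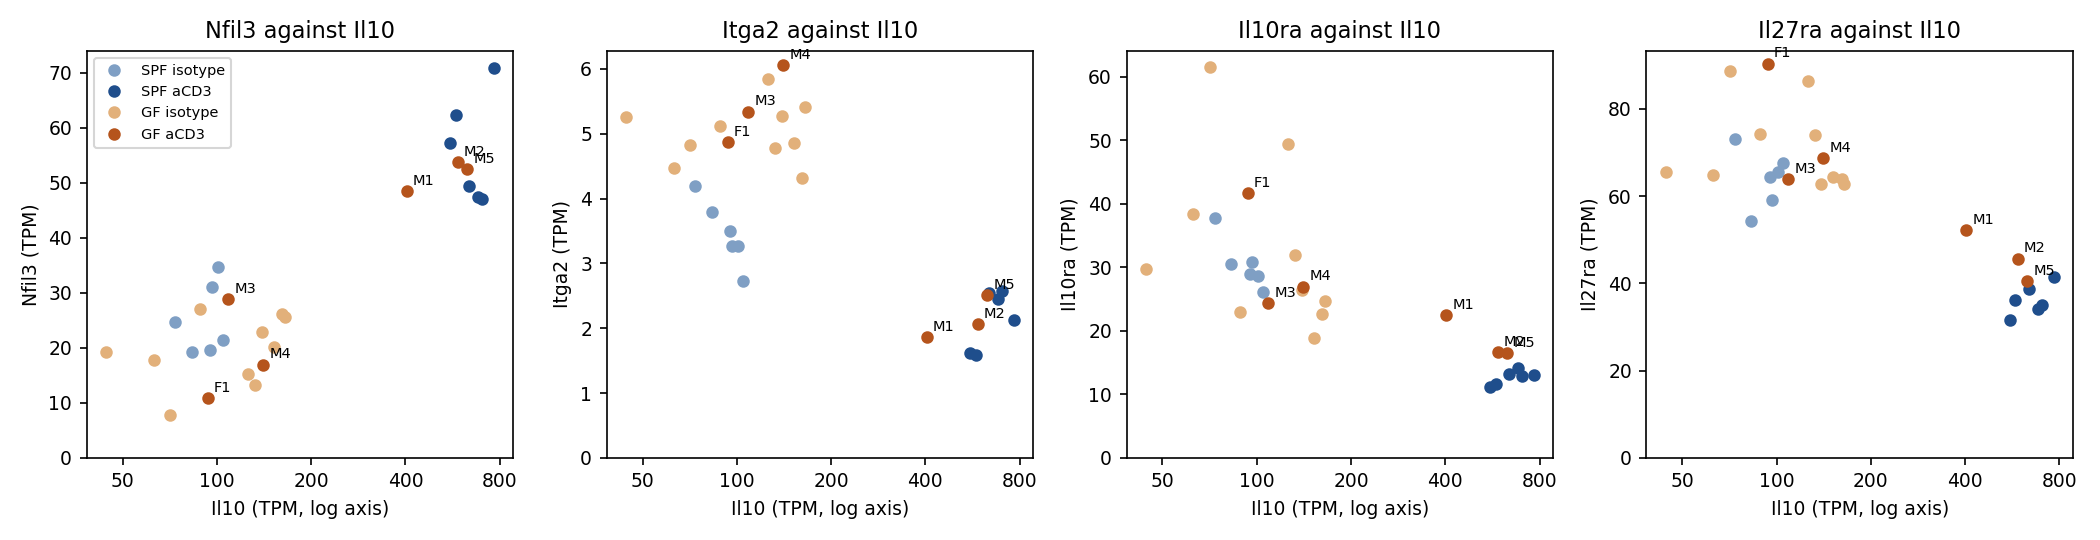
Each point is a library; the horizontal axis is Il10 in TPM on a log axis and the vertical axes are Nfil3, Itga2, Il10ra and Il27ra in TPM, with GF aCD3 libraries named. GF aCD3 M1, M2 and M5 lie at 403 to 630.0 TPM of Il10 and F1, M3 and M4 within the Il10 range of GF isotype; M4 lies above every isotype library in Itga2 and F1 in Il27ra.

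Across all 28 libraries, the genes whose log2(TPM + 1) ran most like that of Il10, were sought among 7480 genes with a mean of at least 5 TPM. They were Tnfrsf4 (Pearson's r = 0.962), Hist1h2bc (0.959), Perp (0.959), Hist1h4b (0.958), Neb (0.958) and Hist1h3e (0.958). Tnfrsf4 encodes OX40, a costimulatory receptor of activated T cells, Perp encodes a membrane protein of desmosomes and cell death, and the histone genes encode core nucleosome proteins. These r are descriptions over libraries that share groups and differ in composition, and the median r over the 7480 genes was -0.655. With group means subtracted the highest 6 were Tnfrsf4 (0.867), Hist1h4b (0.861), Hist1h3e (0.854), Hist1h2ag (0.852), Perp (0.850) and Hist1h2bc (0.849). Groups differed in this: r of the 4 histone genes ran from -0.923 to -0.483 within the 6 SPF aCD3 libraries and from 0.968 to 0.980 within the 6 of GF aCD3. Tnfrsf4 and Perp had r of 0.203 and 0.156 within SPF aCD3 and 0.938 and 0.990 within GF aCD3. Histone genes have near-identical copies between which reads may have been split, so single histone genes are uncertain. Tnfrsf4 averaged 66.9 ± 8.81 TPM in SPF isotype and 416 ± 53.7 in SPF aCD3. In GF it averaged 85.9 ± 29.6 in isotype and 241 ± 177 in aCD3, so its spread in GF aCD3 was wide, as that of Il10 was.

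The wider pathway was read from 6 lists. Of 8 genes of IL-10 receptor signalling tested, 1 was higher in SPF aCD3 and 5 lower (list median -0.41, all genes -0.35), near the 14.2% and 50.7% of all genes. Bcl3, an atypical inhibitor of NF-kB that IL-10 induces in macrophages, was at 24.3 ± 2.85 TPM against 7.82 ± 0.893 in isotype (log2 fold change 1.52 ± 0.20 SE, adjusted p = 3.86e-06). The lowest were Socs1, a feedback inhibitor of JAK kinases (log2 fold change -0.71 ± 0.21 SE, adjusted p = 0.00422), and Il10rb, the shared second chain of the receptor (log2 fold change -0.65 ± 0.14 SE, adjusted p = 3.90e-04). By median of ratios the count was 3 higher and 2 lower, beside 30.2% and 29.8% of all genes, and Socs1 was not called (adjusted p = 0.124).

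Of 8 genes tested for IL-27 and IL-21 signalling, 2 were higher and 4 lower in SPF aCD3 (list median -0.24), near the shares of all genes, 14.2% and 50.7%. By median of ratios 2 were higher and 2 lower, beside 30.2% and 29.8% of all genes, and the list median turned to 0.16. Il21, a cytokine that raises Il10 in T cells, was at 79.4 ± 21.8 TPM against 24.03 ± 8.02 (log2 fold change 1.71 ± 0.37 SE, adjusted p = 3.43e-04). Jak3, a kinase of the IL-21 receptor, was higher as well (log2 fold change 0.57 ± 0.12 SE, adjusted p = 1.96e-04). Jak2 (log2 fold change -1.28 ± 0.19 SE, adjusted p = 6.86e-06) and Stat4, which carries IL-12 signals (log2 fold change -0.96 ± 0.20 SE, adjusted p = 2.34e-04), were lower.

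Of 10 partners of BATF, IRF4 and MAF tested, 7 were lower and 2 higher in SPF aCD3, with a list median of -1.40, beside 50.7% lower and 14.2% higher of all genes and their median of -0.35. After scaling by median of ratios 6 were lower and 2 higher, beside 29.8% and 30.2%. Fos went from 2635 ± 331 to 495 ± 53.5 TPM (log2 fold change -2.41 ± 0.24 SE, adjusted p = 3.35e-07). Jun went from 2296 ± 484 to 432 ± 42.5 TPM (log2 fold change -2.39 ± 0.25 SE, adjusted p = 4.85e-07). Both encode AP-1 subunits, and Jun proteins dimerise with BATF. Irf8, a relative of IRF4, was higher (log2 fold change 1.36 ± 0.20 SE, adjusted p = 6.80e-06), as was Mafg, a small MAF protein (log2 fold change 0.41 ± 0.17 SE, adjusted p = 0.0385).

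Among 29 other factors that act on Il10, 2 were higher and 20 lower in SPF aCD3 (list median -0.61), beside 14.2% and 50.7% of all genes. On the scale of median of ratios 5 were higher and 14 lower, beside 30.2% and 29.8% of all genes. Zbtb32, a repressor induced in activated lymphocytes, was at 8.34 ± 2.99 against 1.15 ± 1.34 TPM (log2 fold change 2.22 ± 0.40 SE, adjusted p = 4.48e-05). Hif1a, the oxygen-regulated factor, was at 207 ± 22.2 against 96.9 ± 11.5 TPM (log2 fold change 1.09 ± 0.16 SE, adjusted p = 8.79e-06). Rora, a nuclear receptor of type 17 and innate-like T cells (log2 fold change -1.86 ± 0.26 SE, adjusted p = 5.90e-06), and Tcf7, a factor of stem-like and resting T cells (log2 fold change -1.58 ± 0.35 SE, adjusted p = 3.52e-04), were the lowest.

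Other surface markers used for type 1 regulatory cells moved up, 7 of 9 higher and 1 lower (list median 0.89), beside 14.2% and 50.7% of all genes. After scaling 8 were higher and 1 lower, beside 30.2% and 29.8%. Lag3 was at 637 ± 112 TPM against 13.5 ± 3.35 in isotype (log2 fold change 5.47 ± 0.74 SE, adjusted p = 3.94e-06). Havcr2, which encodes TIM-3, was at 30.7 ± 3.25 against 0.892 ± 0.310 TPM (log2 fold change 4.08 ± 0.51 SE, adjusted p = 1.72e-06). Cd226, an activating receptor, was at 7.24 ± 0.512 against 57.3 ± 9.12 TPM (log2 fold change -2.81 ± 0.29 SE, adjusted p = 3.85e-07), the member that fell, as Itga2 did in TPM. LAG-3 and CD49b are used together to mark type 1 regulatory cells; in TPM Lag3 was higher and Itga2 lower, and by median of ratios Lag3 stayed called and Itga2 did not.

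Of 9 cytokine genes tested, 3 were higher and 1 lower in SPF aCD3 (list median 0.13), beside 14.2% and 50.7% of all genes. After scaling 4 were higher and 1 lower, beside 30.2% and 29.8%. Il17f was at 26.3 ± 13.01 against 1.68 ± 1.24 TPM (log2 fold change 3.29 ± 0.42 SE, adjusted p = 2.56e-06). Il17a was at 339.6 ± 159 against 59.8 ± 11.96 TPM (log2 fold change 2.32 ± 0.75 SE, adjusted p = 0.00906). Both encode cytokines of type 17 helper cells. Il2, the growth factor of activated T cells, was at 0.341 ± 0.302 against 16.8 ± 3.45 TPM (log2 fold change -3.74 ± 0.50 SE, adjusted p = 3.51e-06).

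**Figure D5:**
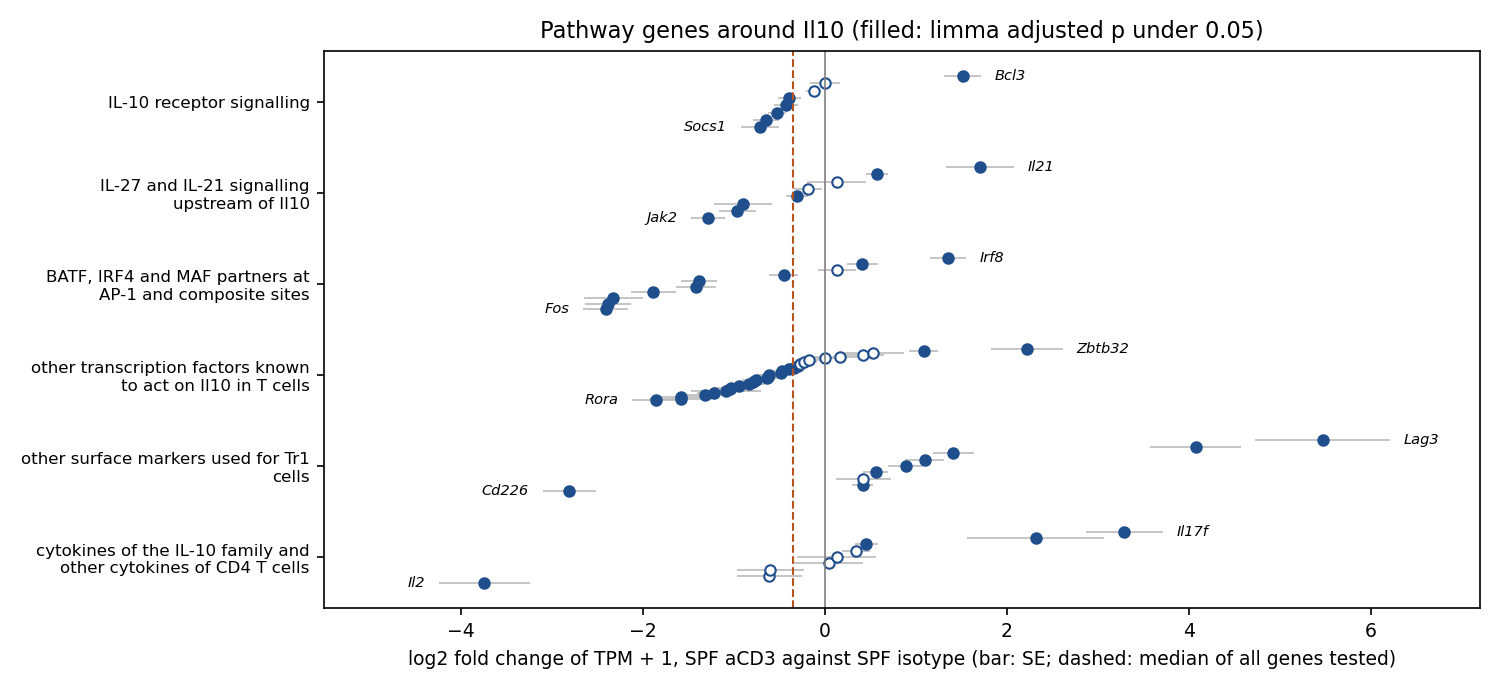
Log2 fold change of TPM + 1 in SPF aCD3 against SPF isotype (horizontal axis; bars, SE) for each gene tested in the 6 lists (rows); filled points had a limma adjusted p under 0.05, and the genes at each end are named. The dashed line marks the median of all genes tested, -0.35; surface markers sit mostly above 0, from Lag3 at 5.47 to Cd226 at -2.81.

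In GF the counts were smaller. After aCD3, Bcl3, Lag3, Havcr2 and Pdcd1 were called higher and Jun, Fos, Fosb and Irf1 lower. These were 1 of 8 for receptor signalling, 3 of 9 surface markers, 3 of 10 partners and 1 of 29 other factors, with 0 in the other lists, beside 2.46% higher and 4.61% lower of all genes. All had adjusted p just under the threshold, at 0.0481 or 0.0484, and without any 1 of the 10 GF isotype libraries 0 of the 12182 genes were called in that comparison. Between isotype groups, GF had higher Irf8 (log2 fold change 0.68 ± 0.18 SE, adjusted p = 0.0208), Gata3 (log2 fold change 0.60 ± 0.17 SE, adjusted p = 0.0296), Tbx21 (log2 fold change 0.47 ± 0.13 SE, adjusted p = 0.0327) and Pdcd1 (log2 fold change 0.58 ± 0.17 SE, adjusted p = 0.0399). All 4 calls were lost by median of ratios, with adjusted p of 0.253 for Irf8, 0.163 for Gata3, 0.0974 for Tbx21 and 0.384 for Pdcd1. It had lower Jun (log2 fold change -1.42 ± 0.23 SE, adjusted p = 6.24e-04). Il22, an epithelial-barrier cytokine of the IL-10 family, was lower too, at 3.64 ± 1.93 against 30.4 ± 12.1 TPM (log2 fold change -2.79 ± 0.39 SE, adjusted p = 1.33e-04).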

How the data were processed

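The deposited table held 25124 genes, and its values are TPM that the authors computed with HOMER's analyzeRepeats.pl on mm10 with transcripts condensed by gene, per the file headers; the aligner's settings and the use of strand are not given in the sources used here, so reads of overlapping antisense genes cannot be told apart. The length column equalled the genomic span in 99.24% of rows. The labels name both a total RNA kit and polyA RNA, which was not settled. The table's 26 TPM columns that match no sample here were not used.

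Whole reads were recovered from TPM times length, with 100% of low values within 0.1 of a whole number. Genes with at least 1 TPM in at least 6 libraries (12182) were tested with limma 3.58.1 (R 4.3.3) on log2(TPM + 1), a scale that understates the change of low genes, with group means, a sex term, trended moderation, all 28 libraries and Benjamini-Hochberg adjustment per comparison (threshold 0.05). Summaries used Python 3.11.15, NumPy 2.4.6 and pandas 2.3.3. The test was checked on simulated data. No 2 libraries were identical.

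All 10 genes are reported in each comparison; of each list, the 2 highest and 2 lowest past the threshold in SPF aCD3 against isotype and in GF against SPF isotype are named, and for likeness to Il10 the 6 highest in each ranking. The genes, lists and tests were chosen with earlier results of these data known. Alternatives were other pseudocounts and filters, scaling by median of ratios, removal of Rn45s and histone genes, array weights, no sex term, fits of the compared groups alone, voom on the recovered reads, run as a covariate or by run, a replicate block and each library left out.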

Additional observations from a re-analysis of the deposited data

How the results depend on the processing

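In SPF, 9 of 10 genes were called after aCD3, and 8 or 9 under each alternative run. The share of all genes called was 64.8%. It ran from 41.3% (no low-value filter) to 72.1% (array weights) under the alternatives other than leaving single libraries out. In GF aCD3 against isotype the count of 0 became 1 with a TPM of at least 5, and 2 by median of ratios, without Rn45s and histone genes, with array weights, with no sex term and by voom, and ran from 0 to 6 with single libraries left out. Of all genes 12.3%, 9.65%, 8.75%, 29.8%, 20.3% and 7.54% were called under these 6 settings in turn. Between isotype groups the count of 0 became 1 (Itga2) without Rn45s and histone genes, with array weights and with only the groups compared. The shares of all genes called were then 11.6%, 15.6% and 14.9%, beside 7.17% in the fit reported above. Between aCD3 groups the count of 6 fell to 3 with array weights and was 8 without Rn45s and histone genes and by voom. The shares of all genes called were then 30.2%, 39.1% and 35.9%, beside 53.3% in the fit reported above. With single libraries left out the count ran from 3 to 7. For the difference of effects the count of 0 became 2 by median of ratios and by voom and 1 without Rn45s and histone genes. The shares of all genes called were then 11.3%, 15.2% and 7.26%, beside 3.48% in the fit reported above. With single libraries left out this count ran from 0 to 4. Fitting only the groups compared is there the same as fitting all 4. The cause was not tested.

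Changes of sign, all of values not called in TPM, were these, as log2 fold changes. Bhlhe40 in SPF aCD3 was 0.24, 0.19 and 0.24 by median of ratios, without Rn45s and histone genes and by voom, and between aCD3 groups -0.35, -0.15 and -0.36 (called by voom); its r with Il10 turned to 0.41 by median of ratios. Between isotype groups, median of ratios and voom gave -0.091 and -0.0909 for Maf, -0.0369 and -0.0375 for Prdm1, -0.0062 and -0.0161 for Batf, -0.0891 and -0.0894 for Bhlhe40, -0.14 and -0.14 for Il10ra and -0.0229 and -0.0228 for Il27ra. Array weights gave -0.079 for Il10ra. Batf between aCD3 groups was 0.0483 with array weights and 0.045 with no sex term. Itga2 in the difference of effects was -0.0797, -0.0486, -0.11 and -0.0628 by median of ratios, without Rn45s and histone genes, with array weights and by voom. Maf in GF aCD3 was -0.10 within numbers 48 to 54. With single libraries left out, signs turned for Bhlhe40 between isotype groups (-0.0183 to 0.16) and aCD3 groups (-0.0258 to 0.17) and in the difference (-0.11 to 0.0919), Il10ra between isotype groups (-0.0846 to 0.11), Batf between aCD3 groups (-0.0949 to 0.0857) and Itga2 in the difference (-0.0329 to 0.21).

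Libraries of the same name and colonisation had residual correlations of -0.130 to 0.0579 in SPF and -0.302 to 0.213 in GF, and 1 of 6 and 0 of 6 correlated best with their own name, so names were not taken as pairs. With a replicate block, the counts were 9, 0, 0, 5 and 0 in the order of the comparisons above. The shares of all genes called were 64.0%, 0.00%, 5.40%, 46.9% and 1.33% in the same order. Irf4 between aCD3 groups was lost (-0.67, adjusted p = 0.0638). Signs turned for Maf (-0.0817) and Il10ra (-0.23) between isotype groups and Batf (0.0671) between aCD3 groups. Depth limited Itga2 and Nfil3 most, whose lowest values rest on 252 and 162 reads; counting error only is covered by such numbers.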

Other observations

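A sex-by-antibody term was fitted in SPF mice after the values were seen, and 0 of the 10 genes passed the threshold by limma, with 1, Nfil3, at an unadjusted p under 0.05, as were 12.2% of all genes. In SPF isotype, Nfil3 ran 19.2 to 21.4 TPM in 3 females and 24.7 to 34.7 TPM in 3 males. In SPF aCD3 the order was the other way, with 57.3 to 70.9 TPM in 3 females and 47.1 to 49.5 TPM in 3 males, without overlap in either group. The log2 difference of the antibody's effect, male minus female, was -0.94 ± 0.17 SE over the 12 SPF libraries (unadjusted p = 0.000235, adjusted p = 0.0869), which misses the threshold; 11 of 12182 genes passed it. Irf4 after aCD3 ran 99.4 to 113.5 TPM in females and 67.8 to 76.4 TPM in males, again without overlap, while its isotype ranges overlapped (-0.56 ± 0.27 SE, adjusted p = 0.439). Bhlhe40 (746 to 816 TPM in females, 641 to 698 in males) and Itga2 (1.59 to 2.12 and 2.46 to 2.57 TPM) did not overlap after aCD3 either. The share of all genes without overlap between the sexes was not counted, so these separations are descriptions only. Il10 itself ran 556 to 766 TPM in females and 639 to 701 TPM in males after aCD3 (0.17 ± 0.21 SE, adjusted p = 0.783). GF aCD3 holds 1 female library, F1, so the same contrast has no replicate there.

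Over the 40 sets of values given by 10 genes in 4 groups, 0 had a library whose gap to the next was past Dixon's 95% limit, where chance would give about 2.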
